A study of Rattus norvegicus with 18 samples.

Results

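The genes described here are 6 members of the interleukin 6 and interleukin 10 signalling families in repairing rat bone: the ligands Il6, Osm, Lif and Il10, the receptor chain Il20rb and the inhibitor Socs3. They were named by symbol, and all 6 were found among the 17337 genes of the count table and passed the low-count filter that left 11814 genes for testing. Bulk messenger RNA was sequenced from cells of marrow and bone lying within 1 mm of a printed scaffold in a critical-size defect of the radius. Every group carried the same polymer, polycaprolactone: alone (PCL), with calcium phosphate microparticles (CaP), or with amorphous calcium phosphate chitosan nanoparticles (ACPC-NP). Rats of genotype WT were sampled at weeks 2 and 6 after implantation, giving 6 groups of 3 libraries. The sources used here do not give strain, sex or age. The labels do not say whether libraries came from separate animals, so p-values measure the spread between libraries, which may be technical.

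Interleukin 6, oncostatin M (Osm) and leukaemia inhibitory factor (Lif) signal through receptors that share the chain encoded by Il6st, and interleukin 10 signals through the chains encoded by Il10ra and Il10rb. Both routes use JAK kinases and the transcription factor STAT3, and STAT3 raises Socs3, which binds the Il6st chain and shuts that signal down. In bone, interleukin 6, oncostatin M and leukaemia inhibitory factor act on osteoblast-lineage cells and through them on osteoclast formation, while interleukin 10 restrains inflammatory macrophages. Il20rb encodes a receptor chain shared by the cytokines interleukin 19, 20 and 24.

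Promoters are shown for Il6, whose level followed that of Socs3 closely, and for Il20rb, whose level followed it less closely. Each is the 250 bases before the gene's start in RefSeq, build GRCr8, read on the strand of the gene. The table used held a promoter for 3 of the 6 genes, the third being Socs3. The Il6 window is chr4:5894576-5894825 and the Il20rb window chr8:109888964-109889213, both on the minus strand. Capitals mark matches, on either strand, to 4 letter patterns that were searched: TTCNNNGAA for STAT factors, GGNNTTTCC for NF-kB, TGANTCA for AP-1 and TTGCNNAA for C/EBP.
Il6: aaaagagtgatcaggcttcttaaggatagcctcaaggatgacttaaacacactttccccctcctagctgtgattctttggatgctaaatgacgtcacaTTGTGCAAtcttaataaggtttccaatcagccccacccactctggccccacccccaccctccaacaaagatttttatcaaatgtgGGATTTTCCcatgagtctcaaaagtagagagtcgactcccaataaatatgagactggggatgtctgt
Il20rb: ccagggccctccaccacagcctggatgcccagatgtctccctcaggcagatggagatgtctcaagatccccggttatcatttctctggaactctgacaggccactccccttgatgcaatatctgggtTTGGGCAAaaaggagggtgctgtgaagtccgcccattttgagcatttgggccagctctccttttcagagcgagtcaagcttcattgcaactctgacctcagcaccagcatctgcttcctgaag
The Il6 window held 1 match to the NF-kB pattern, GGATTTTCC, and 1 to the C/EBP pattern, TTGTGCAA read on the other strand, beginning 67 and 152 bases before the gene's start. The Il20rb window held 1 match, to the C/EBP pattern, 123 bases before the start. The matches did not overlap each other. The Socs3 window, which is not printed, held 0 matches to any of the 4. For each gene only the first listed window was searched, so a Socs3 match outside that window would be missed. Of 33469 windows of the same length, 7.67% held the STAT pattern, 5.19% the NF-kB pattern, 6.34% the AP-1 pattern and 9.22% the C/EBP pattern. The NF-kB pattern was shortened by 1 base at its start after its match in Il6 had been seen, so that match is a description only. A match is a run of letters and not a measured binding site.

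ACPC-NP week 2 replicate 3 differed from the 17 others as a whole. Its score on the first principal component was 91.4, against -23.9 to 25.5 for the others, and its scaling factor was 0.706 against 0.95 to 1.11. Total counts ran from 18880604 to 27186587. It was the highest of the 18 libraries for 5 of the 6 genes, Il20rb being the exception, and 26.3% of all tested genes were highest in it. For Il6, Il10 and Socs3 the second highest library was ACPC-NP week 2 replicate 2, an order shown by 4.83% of tested genes. Log2 differences that involve ACPC-NP at week 2 are therefore given with and without replicate 3.

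**Figure D1:**
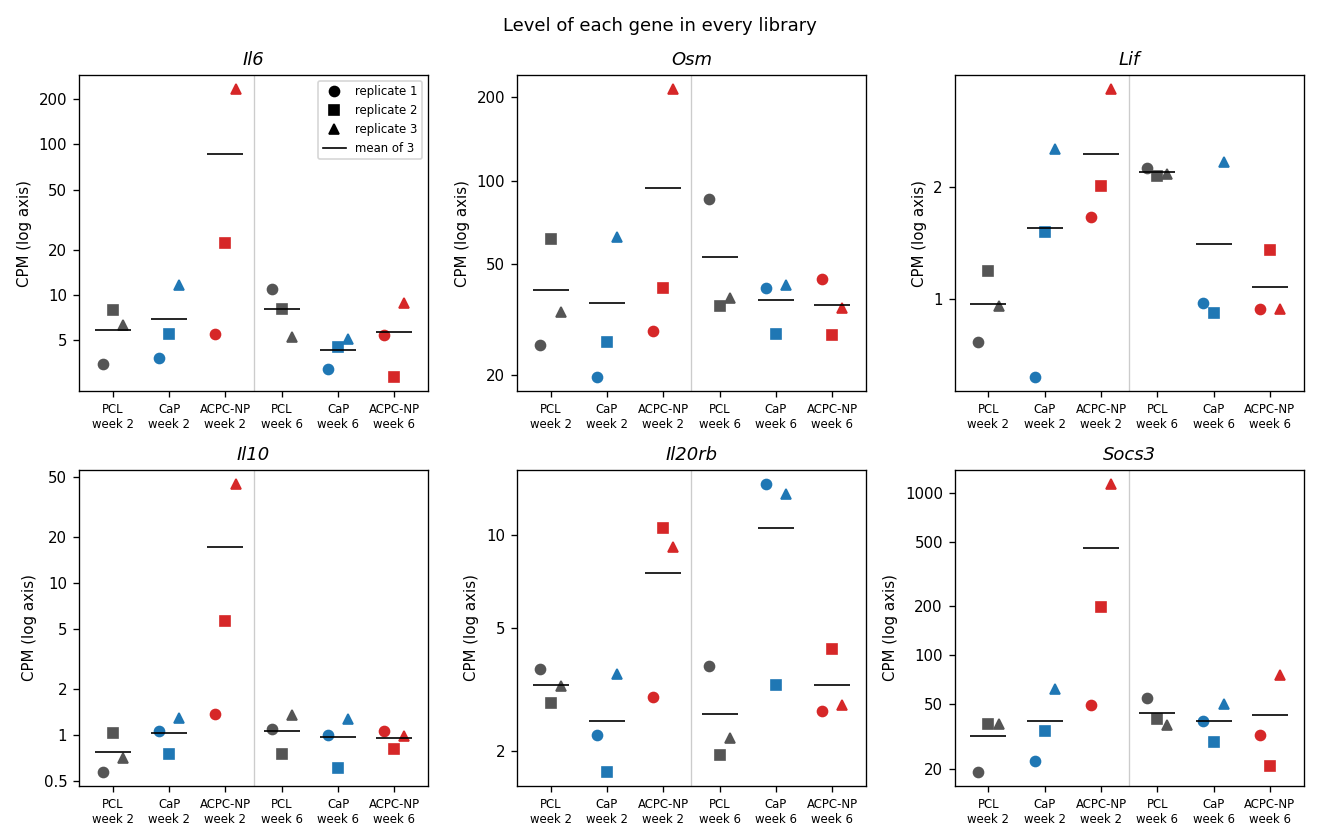
Levels in CPM (counts scaled to library size, log axis) of the 6 genes in every library, by scaffold and week, with 1 symbol per library and a line at the mean of 3. In ACPC-NP at week 2, Il6, Il10 and Socs3 spread from replicate 1, near the other groups, to replicate 3, while Il20rb was high in 2 ACPC-NP libraries at week 2 and 2 CaP libraries at week 6.

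At week 2 the cytokine genes Il6 and Il10 and the inhibitor gene Socs3 rose around ACPC-NP relative to the average of PCL and CaP. The differences were 13.6-fold, 19.1-fold and 13-fold with all libraries. Without ACPC-NP week 2 replicate 3 they were 2.14-fold, 3.86-fold and 3.48-fold. Osm, Lif and Il20rb did not pass the test in that comparison with all libraries. The 3 genes that rose were 3 of 6, while 4.88% of all tested genes were called higher and 0.11% lower (edgeR quasi-likelihood test, adjusted p under 0.05). Without ACPC-NP week 2 replicate 3 none of the 6 was called, and 0.0837% of tested genes were, although Il6, Il10, Il20rb and Socs3 kept an unadjusted p under 0.05, as did 6.89% of tested genes. With edgeR fitted on only these 3 groups none of the 6 was called either, at adjusted p of 0.116 for Il6, 0.0875 for Il10 and 0.0891 for Socs3. The 6 genes and this comparison, of 3 libraries with 6, were chosen with earlier results of these data known. The 3 of 6 therefore cannot be weighed against the 4.88%.

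Il6 encodes the acute inflammatory cytokine that names the first family. Around ACPC-NP at week 2 its level was 5.51, 22.0 and 233 CPM in replicates 1, 2 and 3. It was 3.78, 5.52 and 11.6 CPM around CaP and 3.45, 7.88 and 6.29 CPM around PCL. Replicates 2 and 3 of ACPC-NP lay above all 6 of the other week 2 libraries and replicate 1 lay among them, so the groups overlapped. The log2 difference from the average of PCL and CaP was 3.76 ± 0.75 (standard error; adjusted p = 0.0147, edgeR) with replicate 3 and 1.10 ± 0.51 (adjusted p = 0.725) without it. The voom test with library quality weights put the difference at 1.73 on the log2 scale (adjusted p = 0.0301). Group means of Il6 ran from 86.9 ± 127 CPM (SD, n = 3) in ACPC-NP at week 2 to 8.08 in PCL at week 6, 6.95 in CaP and 5.87 in PCL at week 2, 5.69 in ACPC-NP and 4.30 in CaP at week 6. Each neighbouring pair in that order overlapped.

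Il10, the anti-inflammatory cytokine gene, had 14 reads in the library where it was fewest and 798 where it was most. Around ACPC-NP at week 2 its level was 1.38, 5.60 and 44.8 CPM, against 1.07, 0.753 and 1.30 CPM around CaP and 0.575, 1.03 and 0.708 CPM around PCL. The ACPC-NP libraries lay above all 6 others, so the ranges did not overlap, which was so for 5.8% of tested genes, and 6.98% without replicate 3. The gap was narrow: replicate 1 had 35 reads, with an exact Poisson 95% interval of 0.959 to 1.92 CPM, and the highest CaP library had 33. These intervals cover counting error only. The log2 difference was 4.25 ± 0.68 (adjusted p = 0.00807, edgeR) and, without replicate 3, 1.95 ± 0.42 (adjusted p = 0.123). DESeq2 without replicate 3 still called it, at 1.96 on the log2 scale (adjusted p = 0.0187). After ACPC-NP at week 2, with 17.3 ± 23.9 CPM (SD, n = 3), group means lay between 1.07 in PCL at week 6 and 0.771 in PCL at week 2, and each neighbouring pair among those 5 groups overlapped.

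Osm, a cytokine gene of macrophages and neutrophils, was at 28.8, 41.2 and 213 CPM around ACPC-NP at week 2. It was at 19.7, 26.4 and 63.0 CPM around CaP and at 25.8, 61.5 and 33.9 CPM around PCL. Replicate 3 of ACPC-NP was above every other library and replicates 1 and 2 lay within the range of the others. The log2 difference was 1.30 ± 0.54 (adjusted p = 0.196, edgeR), and without replicate 3 it was -0.14 ± 0.45 (adjusted p = 0.991), smaller than its standard error. Group means ran from 94.3 ± 103 CPM (SD, n = 3) in ACPC-NP at week 2 to 53.2 in PCL at week 6, 40.4 in PCL at week 2, 37.2 in CaP at week 6, 36.4 in CaP at week 2 and 35.8 in ACPC-NP at week 6. Each neighbouring pair overlapped.

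Lif encodes a cytokine of stromal and inflammatory cells, and Lif and Osm both lie on chromosome 14. Lif had 15 to 65 reads per library. Around ACPC-NP at week 2 it was at 1.65, 2.01 and 3.65 CPM. It was at 0.617, 1.51 and 2.52 CPM around CaP and at 0.766, 1.19 and 0.958 CPM around PCL. All 3 ACPC-NP libraries were above all 3 PCL libraries, and they overlapped with CaP. The log2 difference from the average of PCL and CaP was 0.98 ± 0.39 (adjusted p = 0.181, edgeR) and 0.57 ± 0.44 without replicate 3. In the order of group means, ACPC-NP at week 2 (2.44 ± 1.06 CPM, SD, n = 3) was followed by PCL at week 6 (2.18), CaP at week 2 (1.55), CaP at week 6 (1.40), ACPC-NP at week 6 (1.08) and PCL at week 2 (0.971). Each neighbouring pair overlapped.

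Il20rb, the receptor chain, was highest in CaP week 6 replicates 1 and 3. ACPC-NP week 2 replicates 2 and 3, the highest libraries for Il6 and Il10, came next. At week 2 it was at 2.99, 10.5 and 9.15 CPM around ACPC-NP, at 2.26, 1.71 and 3.55 CPM around CaP and at 3.68, 2.85 and 3.25 CPM around PCL. Replicates 2 and 3 of ACPC-NP were above all 6 other libraries and replicate 1 lay among them. The log2 difference was 1.40 ± 0.43 (adjusted p = 0.0774, edgeR) and, without replicate 3, 1.23 ± 0.49 (adjusted p = 0.626). DESeq2 and voom with quality weights called it with all libraries, at adjusted p of 0.0275 and 0.0412. Its usual partner Il20ra and the ligand genes Il20 and Il24 had at most 9, 19 and 7 reads in any library and were not tested. The highest group mean was that of CaP at week 6, 10.5 ± 6.26 CPM (SD, n = 3), then ACPC-NP at week 2 with 7.54, and the other 4 groups lay between 2.51 and 3.26. Each neighbouring pair overlapped.

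Socs3, the inhibitor, was at 49.6, 197 and 1132 CPM around ACPC-NP at week 2. It was at 22.3, 34.0 and 61.6 CPM around CaP and at 19.2, 37.9 and 37.9 CPM around PCL. All 3 ACPC-NP libraries were above all 3 PCL libraries, while replicate 1 was below the highest CaP library. The log2 difference was 3.70 ± 0.66 (adjusted p = 0.0115, edgeR), and without replicate 3 it was 1.80 ± 0.49 (adjusted p = 0.276). Voom with quality weights put it at 2.36 (adjusted p = 0.00377). The mean of ACPC-NP at week 2 was 460 ± 587 CPM (SD, n = 3), and the other 5 group means lay between 31.6 in PCL at week 2 and 44.2 in PCL at week 6, with each neighbouring pair in the order overlapping.

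**Figure D2:**
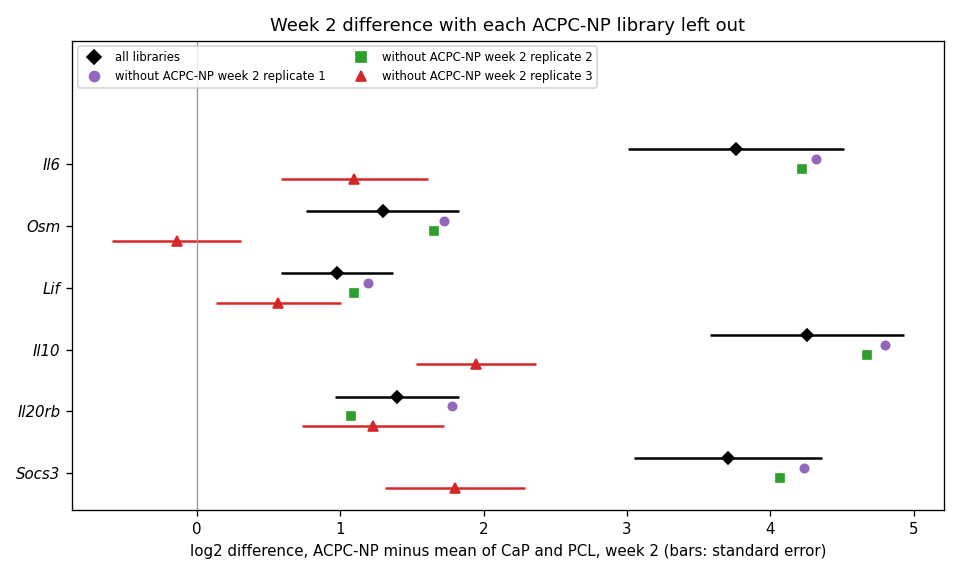
Log2 difference between ACPC-NP and the average of PCL and CaP at week 2 for the 6 genes, with all libraries and with each ACPC-NP library left out. Bars are standard errors, drawn for all libraries and for the fit without replicate 3. Without replicate 3 the Il6 difference was 1.10 in place of 3.76 and the Osm difference -0.14 in place of 1.30, while Il20rb was at 1.23 in place of 1.40.

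Leaving out each of the 9 week 2 libraries in turn, the calls of Il6, Il10 and Socs3 held in 8 cases and ended without ACPC-NP replicate 3. Over those 8 the adjusted p of Il6 reached 0.0499 when PCL replicate 1 was left out (edgeR). Osm and Il20rb were called in 1 case of 9, without ACPC-NP replicate 1, at adjusted p of 0.046 and 0.012 (edgeR). That refit called 1363 genes in all.

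Set against each scaffold alone, no gene of the 11814 was called at week 2, so 0% were called in either direction. With PCL, 1854 genes (15.7%) had an unadjusted p under 0.05, among them 5 of the 6, all but Osm. DESeq2 called 634 genes there and voom with quality weights 309. With CaP, 1858 genes (15.7%) had such a p, among them Il6, Il10, Il20rb and Socs3, and DESeq2 called 595 and voom 376. Against PCL, the ranges of Il10, Lif and Socs3 did not overlap and were higher around ACPC-NP, as were those of 9.56% of tested genes, with log2 differences of 4.47 ± 0.90, 1.32 ± 0.48 and 3.86 ± 0.86. Without replicate 3 these were 2.16, 0.90 and 1.96. Against CaP only Il10, at 4.04 ± 0.88 with replicate 3 and 1.73 without it, had separate ranges, as had 8.57% of tested genes. DESeq2 called Il6, Il10 and Socs3 against PCL, and these and Il20rb against CaP, with all libraries. Without ACPC-NP replicate 3, DESeq2 called Il10 against PCL (adjusted p = 0.0368), among 48 genes in all. Both comparisons share the ACPC-NP libraries. Between CaP and PCL no gene was called by edgeR, DESeq2 or voom, 183 (1.55%) had an unadjusted p under 0.05, and none of the 6 genes had separate ranges, as against 3.09% of tested genes higher and 2.93% lower.

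The remaining genes of the pathway are given as lists. These lists and those below were chosen with earlier results of these data known, so their counts cannot be weighed against the shares of all genes. In the comparison of ACPC-NP with the average of PCL and CaP at week 2, the median log2 difference of all tested genes was -0.02, 46.9% of them were above 0 and 4.88% were called higher. Without replicate 3, 45.7% were above 0 and 0.0837% were called higher. Of 10 interleukin 6 family ligands 9 were tested, 5 were above 0 and 2 rose, with a median of 0.76, and without replicate 3 none was called and the median was -0.23. The 2 were Il6 and Ebi3, a subunit of interleukins 27 and 35. Ebi3 was at 18.4, 83.8 and 740 CPM in the ACPC-NP libraries and between 13.8 and 29.8 CPM in the other 6 week 2 libraries, a log2 difference of 3.91 ± 0.66 (adjusted p = 0.00935, edgeR). As with Il6, replicates 2 and 3 were above all the others and replicate 1 was among them, and without replicate 3 its difference was 1.45 (adjusted p = 0.206).

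Of 6 tested receptor genes of the interleukin 6 family none was called, 4 were above 0 and the median was 0.13. The lowest p-values were those of the oncostatin M receptor Osmr, at 0.90 ± 0.56, and of Il27ra, at -0.28 ± 0.28, or 1.05 and -0.11 without replicate 3. Of the interleukin 10 family receptors, Il20rb among them, all 5 tested were above 0, 1 rose, and the median was 1.40. Without replicate 3 none was called and the median was 0.50. The gene that rose was Il10rb, a chain of the interleukin 10 receptor, at 47.0, 65.9 and 228 CPM around ACPC-NP and 38.1 to 42.6 CPM in the other 6. All 3 ACPC-NP libraries were above those 6, as for 5.8% of tested genes. Its log2 difference was 1.51 ± 0.32 (adjusted p = 0.0181, edgeR) and 0.50 ± 0.11 without replicate 3 (adjusted p = 0.123). Among the ligands of the interleukin 10 family Il10 alone was tested.

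None of the 11 JAK and STAT genes was called, 5 were above 0 and the median was -0.00. Stat6 was at 0.92 ± 0.26 (adjusted p = 0.057) and Jak2 at 0.68 ± 0.21 (adjusted p = 0.0797, edgeR), and DESeq2 called both with all libraries. Without replicate 3 they were at 0.16 and 0.24, each at adjusted p = 0.90 (edgeR). Of 12 feedback inhibitors tested, 9 were above 0 and 2 rose, Socs3 and Cish, with a median of 0.18 that was -0.03 without replicate 3. Cish, a relative of Socs3 that acts on STAT5 signalling, was at 14.9, 29.9 and 100.6 CPM around ACPC-NP and 5.71 to 16.4 CPM in the other 6, overlapping at replicate 1. Its log2 difference was 2.25 ± 0.47 (adjusted p = 0.0181, edgeR), and 1.13 without replicate 3 (adjusted p = 0.51).

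All 24 STAT3 target genes were tested, 22 were above 0 and 7 rose, with a median of 1.12, while 4.88% of all tested genes were called higher. Without replicate 3, 19 were above 0, 1 was called and the median was 0.19, against 0.0837% of all genes called higher. With a list so chosen these counts are a description and do not measure STAT3 activity. The 7 were Il1rn, the interleukin 1 receptor antagonist; the chemokine Ccl2; the transcription factors Batf, Cebpb, Junb and Hif1a; and the corepressor Sbno2. Il1rn was at 282, 1061 and 6396 CPM around ACPC-NP and 106 to 166 CPM in the other 6. Every ACPC-NP library was above them, as for 5.8% of tested genes. Its log2 difference was 4.22 ± 0.62 (adjusted p = 0.00625, edgeR) and 2.27 ± 0.39 without replicate 3 (adjusted p = 0.0485), the only gene of these lists still called there. The other 6 had log2 differences from 1.09 for Hif1a to 2.64 for Batf with all libraries and from 0.36 for Sbno2 to 0.89 for Batf without replicate 3. With edgeR fitted on only the 3 groups compared, none of these lists' genes was called, Il1rn being at adjusted p = 0.0789.

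**Figure D3:**
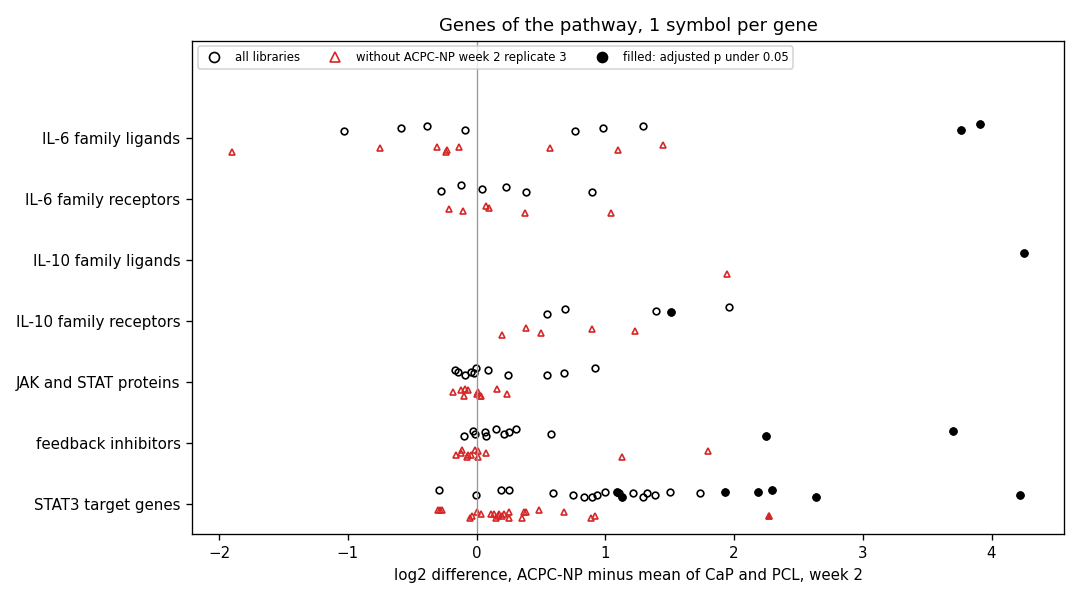
Log2 difference between ACPC-NP and the average of PCL and CaP at week 2 for every tested gene of 7 pathway lists, with all libraries (circles) and without ACPC-NP week 2 replicate 3 (triangles). Filled symbols have an adjusted p under 0.05. The STAT3 target genes lay at a median of 1.12 with all libraries and 0.19 without that library.

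Fth1, the ferritin heavy chain gene, took 0.173%, 0.467% and 3.51% of all counts in replicates 1, 2 and 3 of ACPC-NP at week 2, and 0.129% to 0.210% in the other 15 libraries. Summed CPM of 21 immediate early genes, which respond within minutes to stimulation and to tissue dissociation, was 3879, 5355 and 19562 in the ACPC-NP libraries, 2853 to 6306 around CaP and 3463 to 5714 around PCL. Replicate 3 was above all others and replicate 2 lay within the CaP range. Of these 21, 4 were called higher and all were above 0, at a median of 0.87, where 4.88% of all tested genes were called higher and 46.9% were above 0. Without replicate 3 none was called, 12 were above 0 and the median was 0.07. Junb, Fos and Zfp36 are in both this list and that of STAT3 targets. The part of Fth1 and of these genes in the results was not tested.

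Markers of the cells that could carry these transcripts were summed in the same way. Some of these sums rest mainly on a single gene. Over all libraries Lyz2 had 3241364 reads and Itgam, next in the macrophage list, 256859. Among osteoblast genes Col1a1 had 5566150 and Bglap 119291, and among osteoclast genes Mmp9 had 417875 and Acp5 72294. Col1a2 of the osteoblast list had only 98 reads and Ltf of the neutrophil list 85, so both added almost nothing to their sums. Why they were so low was not tested. For 8 macrophage and monocyte genes the sum was 8249 to 10729 CPM around ACPC-NP at week 2, 8490 to 9354 around CaP and 8688 to 9497 around PCL. For 8 neutrophil genes it was 16638 to 18535, 18147 to 26135 and 19758 to 22660, and for 8 T cell genes 157 to 164, 130 to 178 and 129.6 to 155. The sum of 6 osteoclast genes of 8 listed was higher around ACPC-NP, 1489 to 2067 against 1122 to 1163 and 1122 to 1282, and that of 7 B cell genes of 8 was lower, 922 to 1172 against 1177 to 1620 and 1467 to 1571. Erythroid genes, 7 of 8, summed to 5038 to 8557 around ACPC-NP, 10061 to 10683 around CaP and 5854 to 9550 around PCL, with Gata1 listed at 0 throughout. Osteoblast genes summed to 7908 in ACPC-NP replicate 3 and 11524 to 26316 in the other 8 week 2 libraries. Stroma genes summed to 957 to 1873, 1134 to 2545 and 911 to 2472, and skeletal muscle genes to 57.8 to 80.8, 54.6 to 70.5 and 68.9 to 93.6. The part of these cells in the results was not tested, and in bulk RNA fewer cells of a type and less RNA per cell cannot be told apart.

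At week 6 no gene of the 11814 (0%) was called in any of the 3 comparisons of scaffolds by edgeR. Between ACPC-NP and PCL 2588 genes (21.9%) had an unadjusted p under 0.05, among them Lif, and DESeq2 called 901 and voom with quality weights 4056, none of them among the 6. Between ACPC-NP and CaP 1104 genes (9.34%) had such a p, among them Il20rb, and DESeq2 called 23 and voom 71. Between CaP and PCL it was 304 genes (2.57%), again with Il20rb, and neither tool called any.

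For Il6 and Socs3 the ACPC-NP libraries of week 6 overlapped with those of both other scaffolds. Socs3 was at 32.1, 20.9 and 75.4 CPM, against 39.3, 29.2 and 49.9 CPM around CaP and 54.7, 40.7 and 37.3 CPM around PCL. Il6 was at 5.38, 2.84 and 8.85 CPM around ACPC-NP, 3.23, 4.53 and 5.12 CPM around CaP and 10.98, 8.0 and 5.26 CPM around PCL. All 3 CaP libraries were below all 3 PCL libraries for Il6, a separation downward seen in 4.91% of tested genes. Il10 stayed between 0.61 and 1.36 CPM in all 9 libraries of week 6. Osm was between 28.0 and 86.1 CPM, and its highest library was PCL replicate 1.

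Lif at week 6 was at 0.94, 1.35 and 0.937 CPM around ACPC-NP, 0.973, 0.915 and 2.32 CPM around CaP and 2.25, 2.14 and 2.16 CPM around PCL. Every ACPC-NP library was below every PCL library, which was so for 14.2% of tested genes. The log2 difference was -1.01 ± 0.48 (adjusted p = 0.228, edgeR). At 18 to 30 reads against 51 to 55, the 95% counting interval of the highest ACPC-NP library, 0.914 to 1.93 CPM, overlapped that of the lowest PCL library, 1.61 to 2.79.

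Il20rb at week 6 was at 14.6, 3.27 and 13.6 CPM around CaP, 2.69, 4.29 and 2.81 CPM around ACPC-NP and 3.76, 1.94 and 2.21 CPM around PCL. CaP replicates 1 and 3 were above all other libraries of the week and replicate 2 was among them. The log2 difference between CaP and PCL was 1.99 ± 0.53 (unadjusted p = 0.00196, adjusted p = 1, edgeR) and that between ACPC-NP and CaP -1.68 ± 0.53 (adjusted p = 0.52). The CaP libraries had skeletal muscle sums of 209, 60.6 and 126 CPM in that order, and those of ACPC-NP, where Il20rb was low, 95.8, 67.7 and 617 CPM. The part of muscle in the Il20rb values was not tested.

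As edgeR called no gene at all between scaffolds at week 6, it called none of the pathway lists, which says nothing about them in particular. Which list genes DESeq2 or voom called at week 6 is not given here. Of 9 interleukin 6 family ligands, 1 was above 0 between ACPC-NP and PCL, with a median log2 difference of -0.51, and 5 between ACPC-NP and CaP, with a median of 0.16. The STAT3 targets had medians of -0.21 and -0.18, with 8 and 7 of 24 above 0. All 21 immediate early genes were below 0 in both, with medians of -0.50 and -0.52. Of all tested genes 49.2% and 50.3% were above 0, with medians of -0.01 and 0.00.

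From week 2 to week 6 around ACPC-NP, edgeR called 1 gene of 11814, or 0.00846%, lower, 0% higher and none of the 6, although all 6 had an unadjusted p under 0.05, as did 19.8% of tested genes. Il6, Il10 and Socs3 had log2 changes of -3.93 ± 1.00, -4.16 ± 0.89 and -3.43 ± 0.85 (adjusted p of 0.0891, 0.087 and 0.0877). DESeq2 called these 3, among 785 genes in all, and voom with quality weights called Il10 and Socs3, among 1387. Without week 2 replicate 3 the changes were -1.26, -1.84 and -1.51, and edgeR called none. Il10 and Lif had separate ranges, lower at week 6, as had 9.3% of tested genes, and the Lif change was -1.16 ± 0.48 (adjusted p = 0.197), or -0.74 without replicate 3. The Osm change was -1.40 ± 0.65, and without replicate 3 it was 0.05 ± 0.50, smaller than its standard error.

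Around CaP and PCL no gene was called between the weeks by edgeR, so 0% in either direction. In CaP 4.82% of genes and in PCL 9.87% had an unadjusted p under 0.05, with Il20rb the only 1 of the 6 in CaP and Lif in PCL, and DESeq2 called 5 and 36 genes and voom 0 and 1745. Around CaP, Il20rb was 2.06 ± 0.53 higher at week 6 on the log2 scale (unadjusted p = 0.00154, adjusted p = 0.953), with overlapping ranges. Around PCL, Lif went from 0.766, 1.19 and 0.958 CPM to 2.25, 2.14 and 2.16 CPM. Its ranges were separate, as for 7.76% of tested genes higher at week 6, with a log2 change of 1.17 ± 0.48 (adjusted p = 0.462, edgeR). Voom with quality weights called that change (adjusted p = 0.0482).

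Whether a scaffold difference changed between the weeks was tested by interaction. No gene was called by edgeR for ACPC-NP against PCL or against CaP, so 0% in either direction, with 15% and 14.2% of genes and 4 of the 6 in each at an unadjusted p under 0.05. DESeq2 called 137 and 192 genes and voom 1953 and 169. For PCL the interactions of Il6, Il10, Lif and Socs3 were -4.40 ± 1.33, -4.63 ± 1.22, -2.33 ± 0.67 and -3.91 ± 1.13, each at adjusted p = 0.278. DESeq2 called Il10, and voom called Lif and Socs3, with all libraries. For CaP, Il20rb was at -3.26 ± 0.74 (adjusted p = 0.244, edgeR) and Il10 at -4.05 ± 1.21 (adjusted p = 0.257), and DESeq2 called both. Il6 was at -3.23 ± 1.32 and Socs3 at -3.43 ± 1.12 for CaP, neither called. Without ACPC-NP week 2 replicate 3 the interactions of Il20rb, Il10, Il6 and Socs3 for CaP were -3.10, -1.75, -0.58 and -1.53, and those of Il6, Il10, Lif and Socs3 for PCL were -1.72, -2.31, -1.90 and -1.99, none of them called by edgeR.

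**Figure D4:**
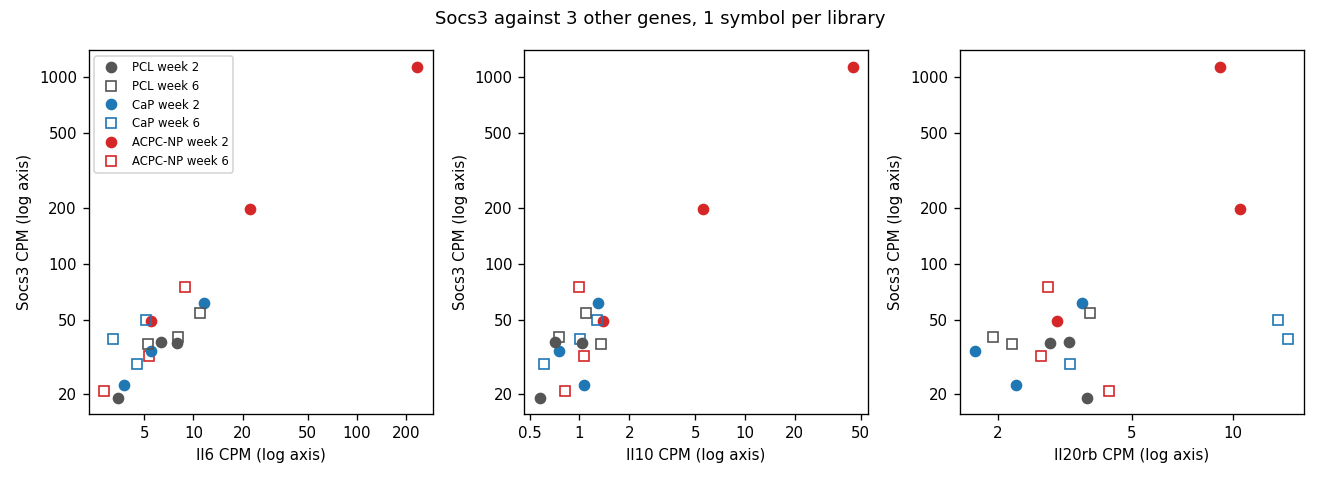
Socs3 against Il6, Il10 and Il20rb in CPM on log axes, with 1 symbol per library, filled at week 2 and open at week 6. In the first and second panels ACPC-NP week 2 replicates 2 and 3 lie far above the rest, and in the third 2 CaP libraries of week 6 are high in Il20rb with Socs3 at 39.3 and 49.9 CPM.

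The 6 genes varied together to different degrees. Over the 17 libraries without ACPC-NP week 2 replicate 3, the Pearson correlation of log2 CPM with Socs3 was 0.88 for Il6, 0.82 for Il10, 0.53 for Lif, 0.46 for Osm and 0.39 for Il20rb. Il6 and Il20rb had the lowest pairwise value, 0.05. Among the 17, ACPC-NP week 2 replicate 2 lay far above the rest for Il10, Socs3 and Il6. It was at 5.60, 197 and 22.0 CPM, where the next highest library was at 1.38, 75.4 and 11.6 CPM. How far the correlations over the 17 libraries rest on that library was not tested. The libraries differ in scaffold, week and cell make-up, so these values describe the set of libraries and were not tested.

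Among genes of at least moderate level, those most like Il6 over the 17 libraries were Csf3, Socs3 and Cxcl1, with correlations from 0.88 to 0.90. Csf3 encodes granulocyte colony-stimulating factor and Cxcl1 a neutrophil chemokine. Those most like Il10 were Tgm1, Gcnt2 and Il23a (0.89 to 0.91), and like Osm the urokinase receptor Plaur, Trib1 and Rab20 (0.93 to 0.94). Lif was most like Cdon, Spsb1 and Twf1, at about 0.83, and Socs3 most like Gcnt2, Fbxo27 and Jag1 (0.91 to 0.92). Il20rb was least matched by any gene, its nearest being the heat shock genes Hspa1b and Hspa1a and Ggt5, at 0.70 to 0.75. With all 18 libraries the nearest genes included Cxcl2 for Il6, Ebi3 for Il10 and B3gnt7 for Il20rb.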

How the data were processed

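Messenger RNA of 18 rat libraries, 3 per group of scaffold and week, was sequenced. Per the labels' protocols, marrow was freed of red cells and digested, bone was minced and digested with collagenase, and the freed cells were pooled for RNA extraction. The authors deposited a table whose unit is the read count per gene symbol, not normalised, for all libraries. Per the submitters' processing notes, bcl2fastq 2.20.0, STAR 2.7.9a, featureCounts and Subread 2.0.1 were used with build Rnor_6.0. Not given in the sources used here are the annotation, how strand was counted and any filter, so reads of a gene and of an overlapping antisense gene cannot be told apart. A second deposited table of normalised values was not used.

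With filterByExpr at a minimum count of 10 and a minimum total of 15, 11814 genes with 99.98% of counts remained. The robust quasi-likelihood test of edgeR 4.0.16 (R 4.3.3) was fitted with TMM scaling and 1 term per group over all 18 libraries (12 residual degrees of freedom). Values after ± beside a log2 difference are its standard error. P-values were adjusted by Benjamini-Hochberg over all tested genes within each of 12 comparisons, with a threshold of 0.05. CPM uses TMM library sizes, and log2 CPM for correlations a prior count of 2. Other settings were DESeq2 1.42.0, voom with library quality weights (limma 3.58.1), DESeq2 size factors, testing without the low-count filter, fitting only the groups compared, a block for replicate number and each library left out. DESeq2 and voom with ACPC-NP week 2 replicate 3 left out were added after seeing the data. The genes, lists and the comparison with the average of PCL and CaP were chosen with earlier results of these data known. From each list the text names the genes called at week 2 in that comparison, or the 2 of lowest p where none was called. Genes of like pattern are the 3 of highest correlation with mean log2 CPM of at least 1. No 2 libraries of a group were duplicates: the chi-square of their counts per degree of freedom was 30.5 to 599.7. Total counts of 18880604 to 27186587 leave counting error smallest for Osm, Socs3 and Il6, while Il10, Lif and Il20rb had as few as 14, 15 and 41 reads in a library. Tests were tried on simulated counts in which no library deviated as a whole. That trial therefore does not bear on calls that rest on ACPC-NP week 2 replicate 3.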

Additional observations from a re-analysis of the deposited data

Results flagged for a closer look

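Lif differed between ACPC-NP and PCL in opposite directions at the 2 weeks, with every ACPC-NP library above every PCL library at week 2 and below it at week 6. Taken singly, such separations were seen in 9.56% of tested genes upward at week 2 and 14.2% downward at week 6. The same Lif values show opposite changes with time, down around ACPC-NP and up around PCL, with no overlap between weeks in either. Of all tested genes, 9.3% were separate downward around ACPC-NP and 7.76% upward around PCL. The change of the Lif difference was -2.33 on the log2 scale (edgeR interaction, adjusted p = 0.278) and did not pass the test. Voom with quality weights called it (adjusted p = 0.0213), among 1953 genes in all. The values rest on 18 to 65 reads per library.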

How the results depend on the processing

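In the comparison of ACPC-NP with the average of PCL and CaP at week 2, 3 of the 6 genes were called and 590 genes in all. DESeq2 called 4 and 1019, voom with quality weights 4 and 889, and edgeR on only the groups compared 0 and 4. Leaving out 1 library at a time gave 0 to 5 of the 6 genes and 10 to 1363 in all. With ACPC-NP week 2 replicate 3 left out, DESeq2 called 1 of the 6 (Il10) and voom 0, among 84 and 76 genes in all. Elsewhere edgeR called 0 of the 6. DESeq2 called 3 against PCL and 4 against CaP at week 2, among 634 and 595 genes in all. It called 3 between the weeks around ACPC-NP, among 785. In the interactions with PCL and CaP it called 1 and 2, among 137 and 192. Without ACPC-NP week 2 replicate 3 it called 1 against PCL, among 48. Voom called 2 against PCL, 2 against CaP and 2 between the weeks around ACPC-NP, among 309, 376 and 1387 genes. It called 2 in the interaction with PCL, among 1953, and 1 (Lif) between the weeks around PCL, among 1745. Leaving out 1 library gave 0 to 3 against PCL, 0 to 4 against CaP and 0 to 3 between the weeks around ACPC-NP. The genes called in all ran from 0 to 877, 893 and 882 in those comparisons. In the interactions 0 to 3 and 0 to 2 were called, among 0 to 148 and 0 to 57 genes. The cause was not tested.

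Osm changed sign without ACPC-NP week 2 replicate 3: the log2 difference was -0.22 against PCL, -0.066 against CaP, -0.14 against their average, 0.051 between the weeks and 0.0070 in the interaction with CaP. Each of these edgeR values was smaller than its standard error, so they show a loss of the difference and not a reversal. Over all single libraries left out the Osm differences ran up to 1.66, 2.03 and 1.73, and down to -1.83 and -2.10. DESeq2 without that library gave -0.22, -0.062, -0.14 and 0.051 for the first 4, and voom 0.086 between the weeks. Differences that were smaller than their standard error with all libraries were left out of this comparison of signs, a choice made after seeing the refits. There were 29, and 18 of them changed sign in at least 1 refit.

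With the replicate number as a block the 6 genes gave 3 calls at week 2 against the average of PCL and CaP, as without it, and 0 in each other comparison, while the count of all genes went from 590 to 239 there, from 0 to 427 between ACPC-NP and PCL at week 6 and from 0 to 1 between the weeks around PCL. Same-numbered libraries correlated at a median of 0.03 (range -0.33 to 0.42), and 8 of 18 libraries correlated best with their own number, so the numbers were not taken to pair them. Another scaling or no low-count filter left the number of the 6 genes called as it was in all 12 comparisons. Depth limits Lif in every library, with 15 to 65 reads, and Il10 in the libraries other than ACPC-NP week 2 replicates 2 and 3.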
